A study of Mus musculus with 4 samples.

Results

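The cells described here were chosen by their own transcript counts from 794833 cells of neonatal mouse brain that had 20 or more gene counts. A cell was taken if it held at least 2 counts of Wnt5a and at least 3 of Vim, and if it stayed below 30 counts of Meg3, 3 of Csf1r, 5 of Cldn5, 5 of Slc1a3 and 8 of Ezr. That gate took 2699 cells, 0.340% of the kept cells, with 586, 670, 548 and 895 cells on coverslips 1 to 4. They are called Wnt5a-gated cells below. The proposed name for them, leptomeningeal fibroblast-like cells, could not be checked in full, as set out further on.

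The data come from MERFISH, an imaging assay that decodes single RNA molecules of a fixed gene panel in place and assigns them to segmented cells. The panel read 140 genes, most of them Wnt pathway genes and cell type markers, and 40 blank barcodes that match no probe and so measure false decoding. Coronal sections of 10 µm that include the barrel cortex were cut from mice at postnatal day 5. All mice, of both genotypes, had their right whiskers lesioned at postnatal day 4, 24 h earlier. Coverslips 3 and 4 carried female sections and coverslips 1 and 2 male sections. Every coverslip held 1 section of a Cx3cl1(-/-) mouse, which lacks the chemokine fractalkine, and 1 section of a wild-type mouse. No column of the files labels which section is which or which hemisphere a cell lies in. Sections were not sorted by their Cx3cl1 counts, and neither genotype nor lesioned side was compared.

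Wnt5a is a secreted Wnt ligand that acts mainly through Frizzled receptors together with the receptor kinases Ror1 and Ror2, largely without beta-catenin. The leptomeninges are the thin inner membranes that wrap the brain. Their fibroblasts lay down a collagen IV basement membrane at the brain surface and secrete signals, Wnt ligands among them, to the tissue below, and they share this border with resident macrophages. The stroma of the choroid plexus is continuous with them. Vim encodes the intermediate filament vimentin, which fibroblasts, immature glia and vascular cells hold. The other gate genes mark cells that the gate was meant to leave out, with Meg3 for neurons, Csf1r for microglia and macrophages, Cldn5 for endothelium, Slc1a3 for astrocytes and Ezr for ventricular and choroid epithelium.

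Total gene counts per coverslip were between 33519204 and 76555311, and the median kept cell held 161, 162, 185 and 273 gene counts on coverslips 1 to 4. Wnt5a-gated cells held a median of 138.5, 120.5, 146.5 and 169. They were shallower than the median kept cell on all 4 coverslips, and coverslip 4, a female one, was the deepest. The most abundant blank barcode reached 0.0836 to 0.175 counts per Wnt5a-gated cell, and 117 to 125 of the 140 genes lay above every blank. In other kept cells the most abundant blank was higher, at 0.194 to 0.338 counts per cell, and 78 to 114 genes lay above every blank. Values below are counts per cell averaged over the cells of a coverslip and then over the 4 coverslips, as mean ± SD with n = 4 unless stated. No cell centre was listed more than once on a coverslip.

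Since the gate used counts of 7 genes, their values are given as a description and were not tested. Wnt5a-gated cells held a median of 2 Wnt5a counts, with a highest value of 19, and a median of 7 Vim counts, with a highest value of 83. Meg3 was at 0 in 22.0% of them, Csf1r in 86.9%, Cldn5 in 69.1%, Slc1a3 in 25.1% and Ezr in 47.4%. Many therefore held some transcripts of the genes meant to exclude other cells, Meg3 and Slc1a3 most often. Just inside the threshold, 1413 cells held exactly 2 Wnt5a counts. Just outside it, 4795 cells met every other limit and held 1, and a further 17551 met every other limit and held 0. The share lying within 100 coordinate units of the outer edge of the tissue was 13.4% with 0 Wnt5a counts, 17.4% with 1, 24.1% with 2 and 28.3% with 3 or more. The share was higher at each step, across the threshold and on both sides of it.

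Position was measured with the centre of each cell. Wnt5a-gated cells lined stretches of the outer surface in all 8 sections, and in each section a second group lay as a compact streak deep in the tissue. Of the 2691 Wnt5a-gated cells inside a section, 703 lay within 100 units of the outer edge, 26 between 100 and 200 units, and 1962 at 200 units or more. Of these deep cells, 1348 had at least 5 other Wnt5a-gated cells within 150 units and are called the band. The other 614 are called scattered. The band thus held 50.1% of the cells, the edge 26.1% and the scattered group 22.8%. The split into band and scattered was chosen after the map was seen, and no test was made between them.

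**Figure D1:**
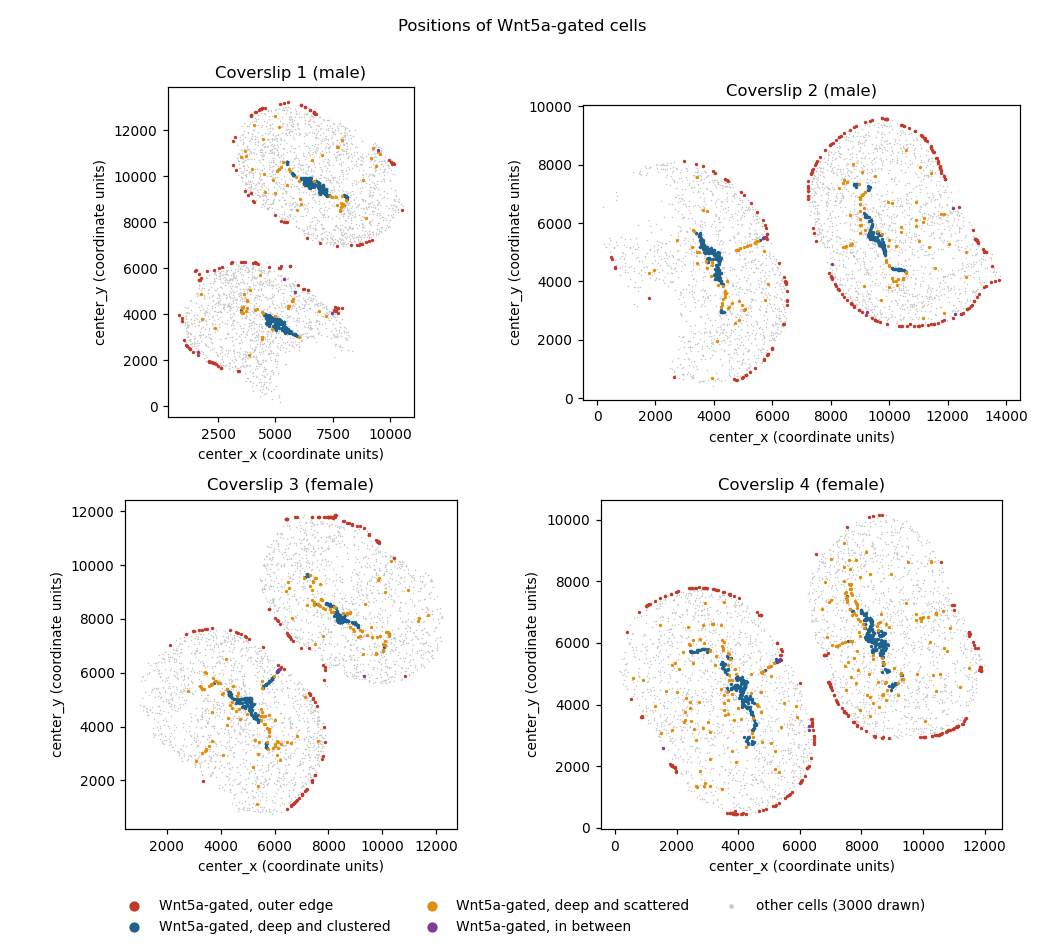
Each panel shows 1 coverslip, with center_x and center_y in the coordinate units of the files. Coloured points are the 2691 Wnt5a-gated cells inside sections, split into 703 edge, 1348 band, 614 scattered and 26 in-between cells, over 3000 other cells drawn at random per coverslip in grey. Edge cells follow the outline of each section, and the band forms a streak near the middle of each.

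Wnt5a-gated cells were found at the outer edge about 4 times as often as other cells. On coverslip 1 the share within 100 units of the edge was 21.8% and 22.3% in the 2 sections, on coverslip 2 it was 21.5% and 40.05%, on coverslip 3 18.6% and 28.6%, and on coverslip 4 27.7% and 23.6%. All other kept cells were between 5.23% and 7.79% over the same sections. The lowest section of Wnt5a-gated cells lay above the highest section of other cells. The mean share was 25.5% ± 6.73 for Wnt5a-gated cells and 6.13% ± 0.788 for other cells (SD, n = 8 sections), a difference of 19.4 percentage points. It was positive in 8 of 8 sections, and an exact two-sided sign-flip permutation test gave p = 0.00781, the smallest that 8 sections allow. The difference was 11.9 percentage points against cells that met every other limit of the gate and held 0 Wnt5a, 13.6% ± 3.70 of which lay at the edge (exact p = 0.00781). The edge share of border macrophages, defined below, was higher than that of Wnt5a-gated cells, at 30.5% ± 8.33. That of mural cells, also defined below, was 14.1% ± 3.41, and neither share was tested. The outer edge includes cut and torn borders of the tissue. It was filled from outside only, so cells at the borders of enclosed spaces within a section can count as deep. Each coverslip is shared by 2 sections, and over 4 coverslips the smallest p would be 0.125.

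The cells kept close company. A mean of 52.3% ± 6.03 of Wnt5a-gated cells had another one within 30 units, against 3.33% ± 0.543 of other cells (SD, n = 8 sections). The median distance to the nearest Wnt5a-gated cell was 28.6 ± 5.66 units for Wnt5a-gated cells and 313 ± 54.1 units for other cells. These 2 measures use the chosen cells themselves and are given without a test.

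Border macrophages, taken as cells with at least 3 counts each of Mrc1 and Csf1r and under 30 of Meg3, were their frequent neighbours. Mrc1 encodes the mannose receptor of macrophages at brain borders. A border macrophage lay within 30 units of 39.1% ± 6.52 of Wnt5a-gated cells and of 4.32% ± 1.28 of other cells (SD, n = 8 sections). The sections of Wnt5a-gated cells spanned 29.7% to 49.4% and those of other cells 3.04% to 7.17%, with no overlap, and the exact two-sided sign-flip test gave p = 0.00781 with 8 of 8 sections positive. Among edge cells alone the shares were 52.7% ± 8.84 and 16.1% ± 3.75 (exact p = 0.00781). Among deep cells alone they were 34.3% ± 8.83 and 3.70% ± 1.41 (exact p = 0.00781).

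Band cells also lay near cells with 8 or more Ezr counts, the level the gate excluded. Ezrin links the membrane to actin in the microvilli of ventricular and choroid epithelium. Such a cell lay within 60 units of 69.8% ± 13.6 of band cells and 37.1% ± 17.5 of scattered cells, against 13.0% ± 5.97 of other deep cells. At the edge the shares were 7.73% ± 6.63 for Wnt5a-gated cells and 6.02% ± 3.30 for other cells, which overlap. A cell with 5 or more counts of Cldn5, the endothelial claudin, lay within 30 units of 94.9% ± 3.27 of edge, 69.8% ± 8.30 of band and 58.5% ± 4.91 of scattered Wnt5a-gated cells, and of 31.6% ± 3.14 of other deep cells (SD, n = 8 sections). The endothelial share was not computed for other edge cells, so the edge value has no comparison at the same position. These proximities are descriptions, and no test was run on them. The sections were not registered to an atlas, so the streak is given no anatomical name.

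Wnt5a-gated cells were longer in outline than other cells. Their median anisotropy, a shape measure of the files that grows as an outline gets longer, was 1.39 ± 0.0214, against 1.27 ± 0.00756 for other cells (SD, n = 8 sections). The lowest section of Wnt5a-gated cells, 1.36, lay above the highest section of other cells, 1.29, and the exact two-sided sign-flip test gave p = 0.00781. Edge cells were longer still, at 1.54 ± 0.0751 for Wnt5a-gated and 1.30 ± 0.0205 for other edge cells (exact p = 0.00781). Band cells had 1.36 ± 0.0281 and scattered cells 1.33 ± 0.0421. Wnt5a-gated cells also had a smaller median volume, 692 ± 49.5 against 810 ± 37.8 in a unit that the files do not name. Against cells of the gate with 0 Wnt5a, at 1.34 ± 0.0143, the anisotropy was higher too (exact p = 0.00781). The gate did not use shape, and this comparison was added after the data had been seen. Some other shape columns hold values outside the range their names allow, so this column is taken as named.

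**Figure D2:**
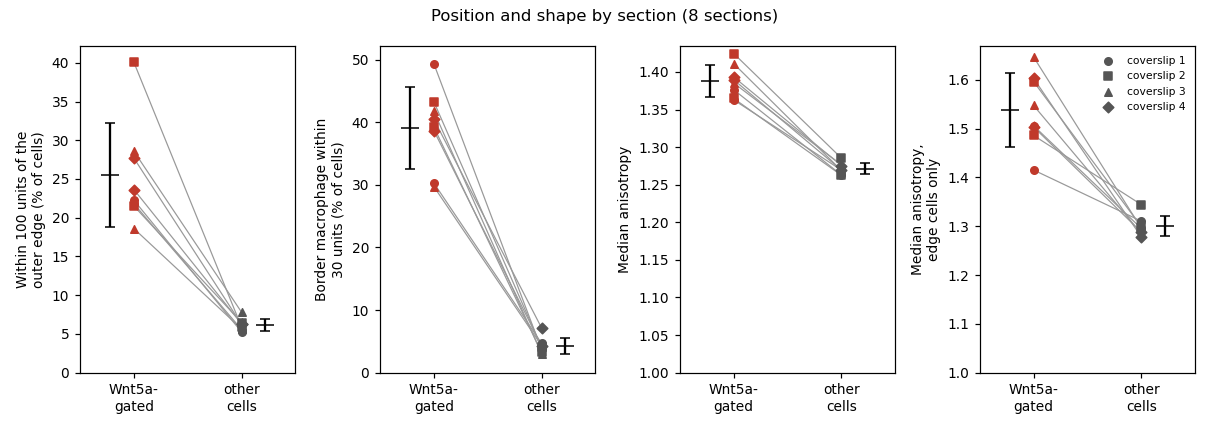
Each point is 1 of 8 sections, with Wnt5a-gated cells at the left and other cells at the right of each panel, joined by section; bars are mean ± SD. From left to right the panels give the percentage of cells within 100 units of the outer edge, the percentage with a border macrophage within 30 units, the median anisotropy, and the median anisotropy of edge cells. In every panel each section's line falls from Wnt5a-gated to other cells.

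The gene comparisons summed counts per coverslip and fitted them with edgeR, with cell volume as the scale, so that log2 differences are per cell volume. A gene was called when it differed by more than 2-fold at a Benjamini-Hochberg adjusted p under 0.05 over all non-gate genes and lay above every blank in the higher cell set on each coverslip. Because the cells were chosen by counts, genes that vary with the gate genes from cell to cell had to differ as well. The tests therefore describe the gated cells and do not show that they form 1 cell type. Wnt4, Fzd2 and Col4a6 were proposed as their markers from these same data, so their differences are no independent evidence.

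Against all other kept cells, 31 of 133 genes were called higher (23.3%) and 19 lower (14.3%), or 37.6% in all, which is the background against which the lists below are read. The Wnt lists below held 68 of the 133 tested genes (51.1%), 19 of the 31 genes called higher and 9 of the 19 called lower. For 18 of the 31 genes, the level in other cells was not above every blank on all 4 coverslips. On at least 1 coverslip their level in other cells therefore could not be told from false decoding, which limits their log2 differences. Some of them, such as Wls and Fzd10, were above every blank in other cells on 2 of 4 coverslips. The 13 above it in both sets were Adgra2, Apoe, Aqp4, Daam2, Gfap, Id1, Lrp5, Pdgfra, Pdgfrb, Ptk7, Sdc4, Slc9a3r1 and Wnt4. Some calls depended on 1 coverslip. Id1, Porcn, Ptk7 and Sdc4 lost their call without coverslip 1, and Mrc1, Pdgfra and Porcn without coverslip 2. Aqp4, Id1 and Sdc4 lost theirs without coverslip 3, and Aqp4 without coverslip 4. By DESeq2, Gsk3b, Porcn and Sdc3 were not called. Col4a6, a chain of basement membrane collagen IV, had 0.997, 0.831, 0.911 and 0.627 counts per Wnt5a-gated cell on coverslips 1 to 4, against 0.135, 0.141, 0.154 and 0.173 per other cell. The groups did not overlap, and the log2 difference was 2.64 ± 0.166 (SE, adjusted p = 7.01e-11), but in other cells Col4a6 was above every blank on 0 of 4 coverslips. Fzd2, a Frizzled receptor, had 1.19, 0.806, 1.30 and 0.975 counts, against 0.229, 0.160, 0.256 and 0.304 (log2 2.36 ± 0.159). Wnt4, another secreted ligand, had 2.18, 2.98, 2.27 and 2.39 counts, against 0.633, 0.590, 0.605 and 0.911 (log2 2.02 ± 0.154). At least 1 count was held by 37.4% of Wnt5a-gated cells for Col4a6, 48.1% for Fzd2 and 57.3% for Wnt4, against 12.04%, 15.96% and 33.0% of other cells.

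Among 18 tested genes of Wnt ligands and their secretion, 5 rose and 2 fell. The list's median log2 difference was -0.32, against -0.25 over all genes tested. Besides Wnt4, the ligand Wnt6 averaged 0.420 ± 0.104 counts, against 0.0678 ± 0.00717 in other cells (log2 2.77 ± 0.159). Wnt2b averaged 0.388 ± 0.0494, against 0.141 ± 0.0398 (log2 1.66 ± 0.151), and Wnt5b, the close relative of Wnt5a, 0.330 ± 0.0592, against 0.126 ± 0.0300 (log2 1.57 ± 0.146). Wls, the carrier that brings Wnt proteins to the cell surface, rose to 1.38 ± 0.211 counts, against 0.314 ± 0.0458 (log2 2.31 ± 0.155). Wnt7b fell to 0.246 ± 0.114 counts, against 1.04 ± 0.237, and Porcn, the enzyme that attaches the lipid of Wnt proteins, to 0.217 ± 0.0946, against 0.613 ± 0.178. The other 11 were not called, among them Wnt16, with 0.186 ± 0.0374 counts against 0.352 ± 0.0621.

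On the receptor side, 8 of 18 genes rose and 0 fell in the edgeR test, with a list median of 0.99 on the log2 scale. Over all 133 genes, 54 had an unadjusted p under 0.05 in either direction, while by DESeq2 31 were higher and 16 lower. The Wnt5a receptor kinases Ror1 and Ror2 were among those that rose. Ror1 averaged 0.537 ± 0.0353 counts, against 0.121 ± 0.0157 (log2 2.32 ± 0.152), and Ror2 0.892 ± 0.0680, against 0.266 ± 0.0448 (log2 1.93 ± 0.153). Ryk, a further Wnt receptor of the kinase family, was not called, with 0.819 counts against 1.16. Fzd7 averaged 1.08 ± 0.211 counts, against 0.286 ± 0.0572 (log2 2.09 ± 0.153), and Fzd10 1.05 ± 0.158, against 0.384 ± 0.0970. Adgra2, a receptor that works with Reck on Wnt7 signals to brain endothelium, averaged 3.59 ± 0.231, against 0.724 ± 0.158 (log2 2.50 ± 0.144). The co-receptors Lrp5 and Ptk7 rose too, to 1.81 and 2.44 counts, against 0.656 and 1.12.

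Of 7 Wnt antagonists, 2 rose and 0 fell. Trabd2b, a membrane protease that trims and inactivates Wnt proteins, averaged 0.938 ± 0.172 counts, against 0.154 ± 0.0223 (log2 2.77 ± 0.155), and the secreted Frizzled-related protein Sfrp4 0.516 ± 0.182, against 0.132 ± 0.0259 (log2 2.09 ± 0.154). Glypicans and syndecans, heparan sulphate proteoglycans that hold Wnt proteins at the cell surface, went both ways, with 2 of 10 higher and 3 lower. Gpc3 averaged 1.67 ± 0.154 counts, against 0.358 ± 0.118 (log2 2.44 ± 0.164), and Gpc5 0.167 ± 0.0865, against 1.63 ± 0.255 (log2 -3.20 ± 0.188). Of 12 beta-catenin pathway genes, 1 rose and 3 fell, and these were Tcf7l1, a transcriptional repressor of the pathway, and Apc, Apc2 and Gsk3b, parts of the complex that degrades beta-catenin. Musk, a receptor kinase with a Frizzled-like domain, averaged 0.280 ± 0.0834 counts, against 0.0701 ± 0.0126 (log2 2.14 ± 0.159).

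Genes of other cell types moved as well. Pdgfrb, which mural cells and fibroblasts express, averaged 3.48 ± 0.758 counts, against 0.614 ± 0.119 (log2 2.67 ± 0.139), and Pdgfra, of fibroblasts and oligodendrocyte precursors, 2.99 ± 0.430, against 1.36 ± 0.281 (log2 1.32 ± 0.143). The astrocyte genes Gfap and Aqp4 rose, with 8.23 ± 2.20 against 2.13 ± 0.523 counts of Gfap (log2 2.11 ± 0.136) and 3.97 ± 1.59 against 1.66 ± 0.334 of Aqp4, and 65.5% of Wnt5a-gated cells held Gfap. Tmem119, used as a microglial marker and also known from bone-forming cells, was the 1 of 6 tested microglial genes that rose, to 0.803 ± 0.137, against 0.147 ± 0.0226 (log2 2.62 ± 0.169). P2ry12, a defining microglial receptor, was above every blank on none of the 4 coverslips, at 0.0408 counts. The same held in other cells, at 0.122 counts, and 0 of the 6 microglial genes were called lower. Of 9 tested neuronal markers 7 fell, among them Sst, Gad1, Gad2, Bcl11b, Rorb, Cux2 and Slc17a6. The lowest was Sst, the somatostatin gene, with 0.0770 ± 0.0340 counts against 1.45 ± 0.385 (log2 -4.09 ± 0.185), and Prkce fell by 2.76 on the log2 scale. The limit on Meg3 selects against neurons, so nothing is read from these. Cx3cl1, another neuronal transcript, had a log2 of -3.06, but each coverslip average mixes both genotypes, and its call was lost when counts were summed by section.

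Marker lists were summed without the genes of the gate. The 3 astrocyte markers left summed to 13.5 ± 4.33 counts per Wnt5a-gated cell, against 4.76 ± 1.28 per other cell, and the 2 mural markers to 4.65 ± 1.24, against 1.496 ± 0.310. Gfap and Aqp4 were called higher, and the astrocyte marker Aldh1l1 was not. Of the mural markers, Pdgfrb was called higher and Cspg4 was not. The 2 border macrophage markers measured, Mrc1 and Lyve1, summed to 0.547 ± 0.108, against 0.277 ± 0.0227, and 25.6% of Wnt5a-gated cells held at least 1 count of either. Mrc1 was called higher and Lyve1 was not. The oligodendrocyte lineage list summed to 4.74 ± 0.962, against 3.28 ± 0.849. Only Pdgfra was called higher in that list, whose median log2 difference was 0.02. The 1 ependymal or choroid marker left, Slc9a3r1, summed to 2.05 ± 0.377, against 0.827 ± 0.258. The 6 microglial markers summed to 1.58 ± 0.147, against 1.26 ± 0.275. Only Tmem119 was called higher among them, and their median log2 difference was -0.14. Pecam1, the endothelial marker left, had 0.699 ± 0.0928 counts, against 0.715 ± 0.148, and the 9 neuronal markers summed to 1.77 ± 0.842, against 13.7 ± 4.12. The part of neighbouring cells' transcripts in these sums was not tested.

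This bears on the name. Of 12 fibroblast or meningeal genes on the list used, the panel held 2, Pdgfra and Pdgfrb, and neither is particular to fibroblasts. Defining fibroblast collagens were not measured here. The edge position of 26.1% of the cells, and the high median anisotropy of that group, go with a leptomeningeal name. However, 72.9% lay deep in the tissue, which here means only far from the outer edge. Deep Wnt5a-gated cells also had a higher median anisotropy than other cells, at 1.36 against 1.27, which was not tested. Of the glial genes, Sox9 was called higher in deep Wnt5a-gated cells than in other deep cells, with 3.52 counts against 1.73. Sox2 was not called there, with 2.78 against 2.61 (log2 0.22). Gfap averaged 8.16 counts in edge and 8.33 in deep Wnt5a-gated cells. The neutral name Wnt5a-gated cells was kept for these reasons.

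Both sides were then restricted to cells within 100 units of the outer edge. A difference in position remained, since 22.4% of all Wnt5a-gated cells lay within 50 units and 26.1% within 100, against 2.66% and 6.12% of other cells. In this comparison 18 of 133 genes were called higher (13.5%) and 23 lower (17.3%). Trabd2b had 2.24 counts per edge Wnt5a-gated cell, against 0.408 per other edge cell (log2 2.65 ± 0.180), Wnt6 0.955, against 0.165 (log2 2.73 ± 0.210), Col4a6 1.01, against 0.307 (log2 1.93 ± 0.148), and Wnt4 3.08, against 0.893 (log2 2.00 ± 0.167). Of the 50 genes called against all other kept cells, 34 were called here too. The calls lost were those of Apoe, Aqp4, Bcl2l11, Daam2, Gfap, Id1, Lrp5, Mrc1, Pdgfra, Peg3, Sdc4, Sfrp4, Slc9a3r1, Syt6, Tcf7l1 and Wnt5b. Gfap had 8.16 against 5.78 counts (log2 0.70 ± 0.192), Sfrp4 0.160 against 0.108 (log2 0.80 ± 0.232) and Pdgfra 2.36 against 1.23 (log2 1.16 ± 0.155). Among deep cells alone 30 genes were called higher (22.6%) and 18 lower (13.5%), and Gfap, Sfrp4 and Pdgfra were among those called.

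**Figure D3:**
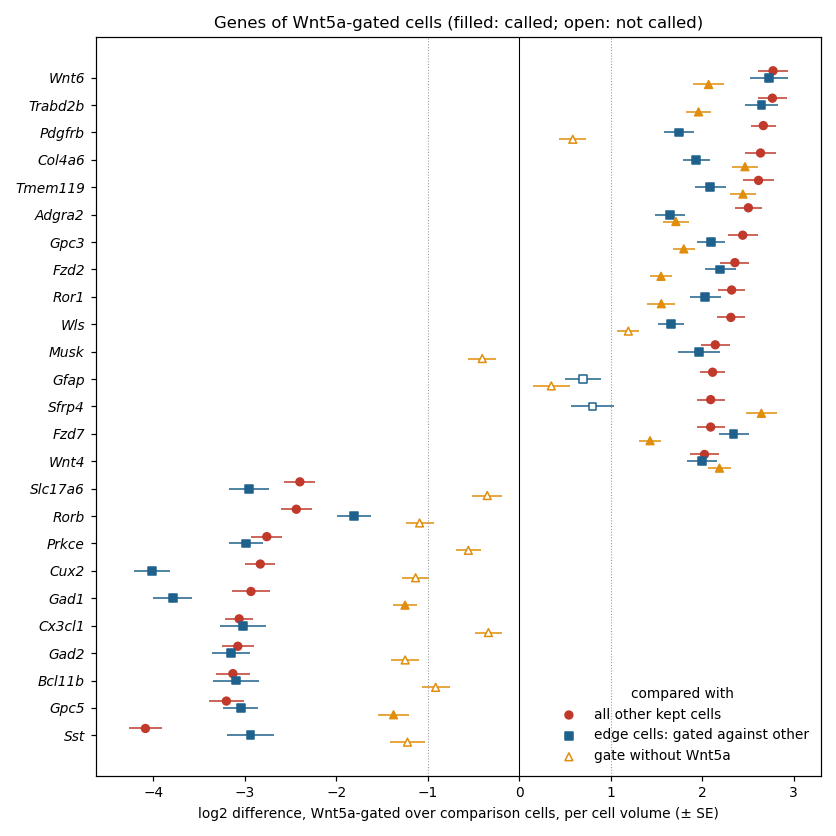
Log2 differences per cell volume (± SE of the fit, 4 coverslips) for 25 genes, with Wnt5a-gated cells compared with all other kept cells, with other edge cells (edge Wnt5a-gated cells only), and with cells of the gate that held 0 Wnt5a. Filled symbols were called and open symbols were not; dotted lines mark 2-fold. Gfap and Sfrp4 lie near 0.7 to 0.8 among edge cells, and Pdgfrb, Musk and Gfap are not called against the gate without Wnt5a.

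The closest comparison set consisted of the 17551 cells that met every other limit of the gate and held 0 Wnt5a counts. There 18 of 133 genes were called higher (13.5%) and 3 lower (2.26%), or 15.8% in all. Sfrp4 led with 0.708, 0.451, 0.294 and 0.611 counts on coverslips 1 to 4, against 0.0853, 0.0760, 0.0681 and 0.0606, a log2 difference of 2.65 ± 0.168 (adjusted p = 3.46e-21). Every coverslip of Wnt5a-gated cells lay above every coverslip of the other set. For 7 of the 18 genes, Sfrp4, Col4a6, Tmem119, Wnt6, Wnt2b, Mrc1 and Lyve1, the set without Wnt5a was not above every blank on all 4 coverslips. Col4a6 (log2 2.47 ± 0.141), Tmem119 (2.44 ± 0.143), Wnt4 (2.19 ± 0.130), Wnt6 (2.07 ± 0.167), Trabd2b (1.96 ± 0.132) and Wnt2b (1.83 ± 0.166) followed, each higher on 4 of 4 coverslips. Of the receptor list 7 of 18 rose, Fzd2, Fzd7, Fzd10, Ror1, Ror2, Reck and Adgra2, and 0 fell. The 3 genes that fell were Sox10, Gpc5 and Gad1. Sox10, a transcription factor of the oligodendrocyte lineage, had 0.479 ± 0.354 counts, against 1.82 ± 1.32 (log2 -2.06 ± 0.131).

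Pdgfrb (log2 0.59 ± 0.146), Pdgfra (log2 0.02, 2.99 against 2.87 counts), Gfap (0.35 ± 0.202) and Sox9 (-0.30 ± 0.149) were not called in this comparison. Both border macrophage genes rose, Mrc1 to 0.292 ± 0.0559 counts, against 0.0932 ± 0.0153, and Lyve1 to 0.255 ± 0.0649, against 0.0889 ± 0.0116. Cells without Wnt5a were shallower, with a median of 98.3 gene counts over the coverslips, against 144, and a gene of median rank differed by 0.29 on the log2 scale. Scaled by TMM, which sets that median at -0.07, 12 genes were higher and 9 lower, and Mrc1, Lyve1, Fzd7, Reck, Ror1 and Bcl2l11 lost their call. Gad1 lost its call without coverslip 1, 2 or 3, and Gpc5 without 1 or 2, which left 1 gene lower without either of those coverslips. Lyve1 lost its call without coverslip 2, 3 or 4, and Bcl2l11 without 3 or 4.

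Border macrophages were the second comparison set. Wnt5a-gated cells were lower in 7 of 132 genes (5.3%) and higher in 20 (15.2%), or 20.5% in all. Cx3cr1, the fractalkine receptor, had 0.165 ± 0.0333 counts, against 9.73 ± 2.49 in border macrophages (log2 -5.51 ± 0.152, adjusted p = 2.95e-09). P2ry12 (log2 -5.24 ± 0.123), C1qa (-4.37 ± 0.0896), Lyve1 (-3.77 ± 0.116) and Itgam (-3.04 ± 0.123), all genes of macrophages or microglia, also fell. No Wnt5a-gated cell met the definition of a border macrophage, whose Csf1r minimum the gate excludes. Sfrp4 (log2 3.52 ± 0.213) and Sox9, a transcription factor of glia and some mesenchymal cells (2.16 ± 0.0728), were the leading genes that rose, and for 7 of the 20 genes, Sfrp4 among them, border macrophages were not above every blank on all 4 coverslips.

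Border macrophages nevertheless shared several transcripts with their neighbours. They held 0.991 ± 0.0455 counts of Wnt5a, 1.67 ± 0.148 of Wnt4, 0.734 ± 0.125 of Col4a6, 0.622 ± 0.0940 of Trabd2b and 2.41 ± 0.917 of Tmem119. Of the proposed markers, Fzd2 was called higher in Wnt5a-gated cells (log2 1.56 ± 0.0811), while Wnt4 (0.92) and Col4a6 (0.56 ± 0.108) were not called. The part of transcripts assigned to the wrong neighbour was not tested. The median log2 over all genes was 0.59, and TMM scaling, which sets it at 0.02, called 5 higher and 9 lower, with Fzd2 no longer among them.

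Mural cells were the third set. They were taken by at least 3 Pdgfrb counts, no Wnt5a and the gate's limits on Meg3, Csf1r, Cldn5, Slc1a3 and Ezr, without a Vim minimum. They were shallower, with a median of 88.5 gene counts over the coverslips, against 144 in Wnt5a-gated cells. Wnt5a-gated cells had 26 of 132 genes higher (19.7%) and 2 lower (1.52%), or 21.2% in all. Musk led, with 0.387, 0.185, 0.286 and 0.263 counts, against 0.0294, 0.0270, 0.0345 and 0.0257 in mural cells (log2 3.19 ± 0.267, adjusted p = 2.94e-07), although mural cells' Musk counts were below the highest blank, as for 22 of the 26 genes on at least 1 coverslip. Wnt2b (log2 2.83 ± 0.257), Wnt4 (2.82 ± 0.240), Fzd10 (2.53 ± 0.236), Col4a6 (2.47 ± 0.260), Gfap (2.45 ± 0.253), Wnt3 (2.44 ± 0.251) and Trabd2b (2.34 ± 0.235) also rose on 4 of 4 coverslips. Cspg4, the NG2 proteoglycan of pericytes and oligodendrocyte precursors, fell to 1.173 ± 0.627 counts, against 4.77 ± 1.57 (log2 -2.13 ± 0.236), as did Sst. On coverslip 1 the mural set stood apart, with 0.747 counts per cell of its highest blank and 32 genes above every blank, and without that coverslip 25 genes were higher and 2 lower. TMM scaling called 10 higher and 3 lower, and library totals 9 and 3; the median log2 over all genes was 0.66 by volume and -0.01 by TMM.

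**Figure D4:**
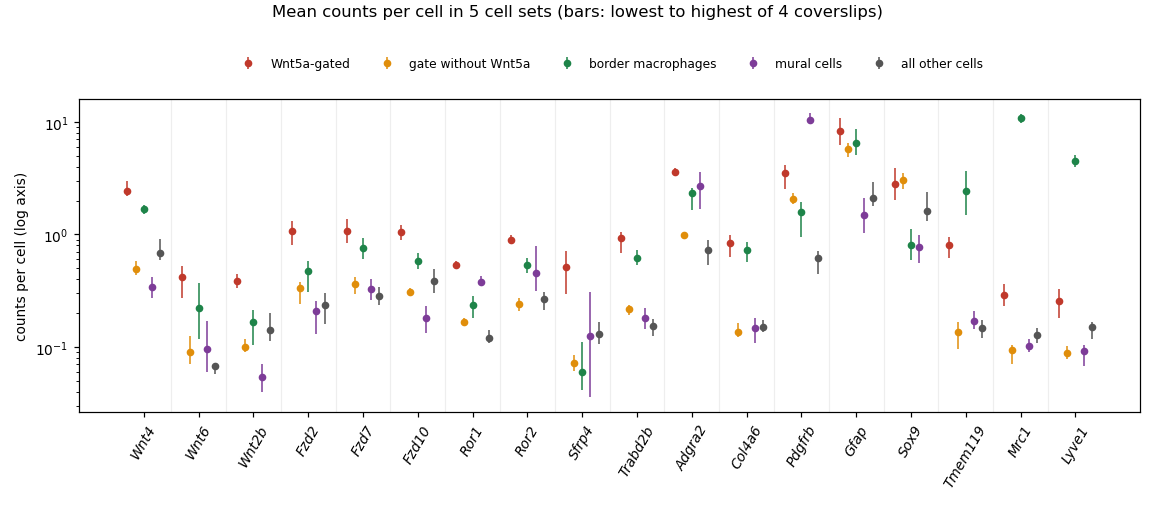
Mean counts per cell of 18 genes in Wnt5a-gated cells and 4 comparison sets, on a log axis, with bars from the lowest to the highest of 4 coverslips. Wnt5a-gated cells lie above the gate without Wnt5a for the Wnt and Frizzled genes, Trabd2b and Col4a6. For Gfap and Sox9 those 2 sets lie close together, and for Col4a6 Wnt5a-gated cells and border macrophages overlap.

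Edge and deep Wnt5a-gated cells were compared with each other, since the gate did not use position. The edge cells held more of 3 genes and less of 8 out of 133, or 2.26% and 6.02% (8.27% in all). The Wnt lists, 51.1% of the genes tested, held all 3 of the higher and 6 of the lower genes. Trabd2b had 1.52, 2.20, 2.91 and 2.33 counts per edge cell on coverslips 1 to 4, against 0.449, 0.480, 0.443 and 0.511 per deep cell. Edge and deep values did not overlap, and the log2 difference was 2.27 ± 0.188 (adjusted p = 0.00128). Wnt6 had 0.922, 0.436, 1.30 and 1.16 counts, against 0.305, 0.183, 0.246 and 0.186 (log2 2.05 ± 0.296, adjusted p = 0.0201). The ligand Wnt16 had 0.279, 0.372, 0.559 and 0.358 counts, against 0.0996, 0.113, 0.127 and 0.105 (log2 1.84 ± 0.236, adjusted p = 0.0183).

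Sox2, a transcription factor of neural stem cells and glia, differed most among the genes lower at the edge. It had 0.814, 0.349, 0.409 and 0.546 counts per edge cell, against 2.68, 1.68, 2.58 and 4.17 per deep cell (log2 -2.34 ± 0.187, adjusted p = 0.00128). The groups stood apart on every coverslip, and 5.41% of edge cells, 30.0% of band cells and 40.4% of scattered cells held 3 or more Sox2 counts. Sox9 had 0.822, 0.803, 0.701 and 0.747 counts, against 3.48, 2.61, 2.97 and 5.03 (log2 -2.10 ± 0.157, adjusted p = 0.00128). The ligand Wnt3 averaged 0.0607 ± 0.00653 counts, against 0.326 ± 0.117 (log2 -2.31 ± 0.290, adjusted p = 0.0110). Sfrp4 averaged 0.160 ± 0.0338, against 0.649 ± 0.237 (log2 -1.93 ± 0.323, adjusted p = 0.0416), and the Frizzled receptor Fzd9 0.125 ± 0.0442, against 0.515 ± 0.234 (log2 -1.92 ± 0.338, adjusted p = 0.0488). For Wnt3, Sfrp4 and Fzd9 the edge cells, and for Wnt16 the deep cells, were not above every blank on all 4 coverslips. The syndecan Sdc3, Apc2 and the formin Daam2, a Wnt pathway regulator, were also lower.

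Most Wnt genes were not called between the 2 positions. Of 18 ligand and secretion genes 2 were higher and 1 lower at the edge, and of 18 receptor genes 0 were higher and 1 lower in the edgeR test, while Fzd7 had 1.90 ± 0.519 against 0.795 ± 0.184 counts with an adjusted p of 0.0972. Wnt4 (log2 0.51 ± 0.161), Fzd2 (0.46 ± 0.187) and Col4a6 (0.44 ± 0.169) were not called. The sum of Mrc1 and Lyve1 was 0.659 to 1.34 counts per edge cell over the coverslips, and 0.318 to 0.624 per band cell. Leaving out the cells that held either gene gave 3 genes higher and 7 lower, with Daam2 no longer called.

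These calls depended on which coverslips entered. Leaving out 1 coverslip gave 1 to 4 genes higher and 3 to 14 lower. Wnt6 lost its call without coverslip 3 or 4, Sfrp4 without 2 or 4, Fzd9 and Wnt16 without 2, 3 or 4, while Trabd2b, Wnt3, Sox2 and Sox9 kept theirs each time. Other cells also differed by position, with 0.408 ± 0.0362 counts of Trabd2b at the edge against 0.136 ± 0.0231 deep, and 1.87 ± 0.467 of Sox2 against 2.61 ± 0.817. For Wnt16 other cells had 0.2675 ± 0.0569 counts at the edge and 0.354 ± 0.0639 deep. Edge Wnt5a-gated cells, at 0.392, were not called against other edge cells for Wnt16 (log2 0.76 ± 0.177). Deep ones, at 0.111, were below other deep cells (log2 -1.51 ± 0.161, not called). Whether the positional difference of Wnt5a-gated cells exceeded that of other cells was not tested.

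**Figure D5:**
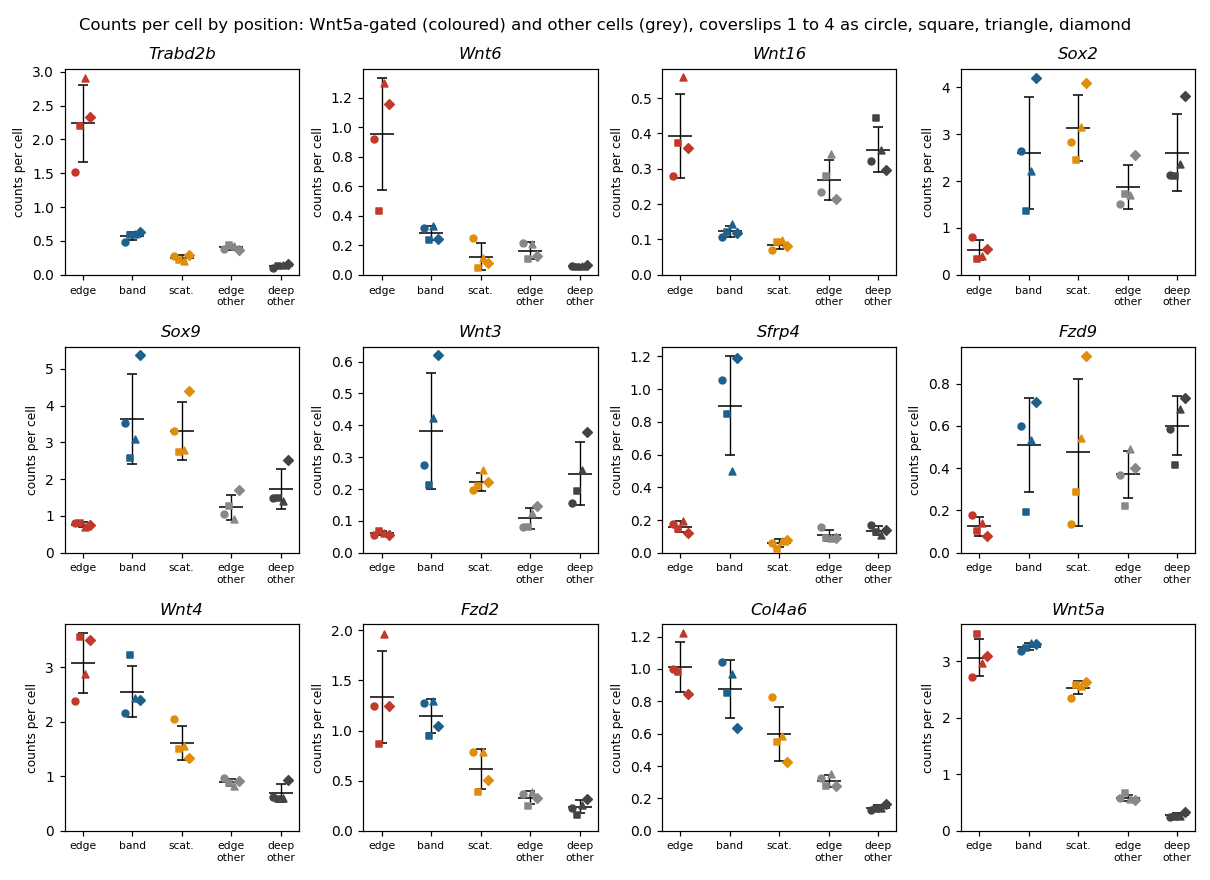
Counts per cell of 12 genes in edge, band and scattered Wnt5a-gated cells and in other cells at the edge and deep, with 1 symbol per coverslip and black bars for mean ± SD (n = 4). Trabd2b, Wnt6 and Wnt16 are highest in edge cells among the Wnt5a-gated groups, Sfrp4 is highest in band cells, and Sox2 and Sox9 are low in edge cells.

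Within the deep cells, band and scattered cells had different values, given here without a test because the split was drawn from the map. Sfrp4 had 1.06, 0.850, 0.498 and 1.19 counts per band cell and 0.0575, 0.0234, 0.0741 and 0.0759 per scattered cell, so that among deep cells its signal lay mostly in the band. The band also held more Col4a6, with 0.874 ± 0.179 against 0.597 ± 0.168 counts, more Wnt4, with 2.56 ± 0.461 against 1.61 ± 0.313, and more Tmem119, with 0.814 ± 0.182 against 0.378 ± 0.0794. Scattered cells had a higher mean of Pdgfrb, with 5.69 ± 1.78 counts against 2.61 ± 0.705 in the band. The share of cells with 3 or more Pdgfrb counts was nearly equal, at 31.3% of scattered and 30.9% of band cells. Scattered cells also had higher means of Cspg4, with 3.37 ± 1.62 against 0.362 ± 0.182, and of Sox10, with 1.38 ± 0.933 against 0.244 ± 0.189. Mean Wnt5a was 3.26 ± 0.0661 counts in the band and 2.53 ± 0.118 in scattered cells.

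Female and male Wnt5a-gated cells were compared over 2 coverslips each, without the blank rule and against no difference. Gad1, Gpc2 and Syt6 were called higher in females, 2.26% of 133 genes. Gad1, the GABA-synthesizing enzyme, had 0.487 and 0.740 counts in females and 0.171 and 0.203 in males (log2 1.31 ± 0.305, edgeR adjusted p = 0.00920). The glypican Gpc2 had 0.445 and 0.649, against 0.208 and 0.134 (log2 1.30 ± 0.305), and Syt6, a deep cortical layer gene, 0.279 and 0.258, against 0.0546 and 0.112 (log2 1.28 ± 0.332). edgeR called 0 genes lower, although 13 lower genes had an unadjusted p under 0.05. By DESeq2, 2 were higher and 0 lower.

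The female coverslips were also the deeper ones, so sex and depth cannot be told apart, and without coverslip 1 none of the 3 genes was called. Without coverslip 2, Gad1 and Gpc2 lost their call, and without coverslip 3, 11 genes were called higher and 3 lower. Scaled by cell volume as in the other comparisons, 28 genes were called higher and 0 lower. The share of Wnt5a-gated cells was 0.283% and 0.380% on the female coverslips and 0.340% and 0.346% on the male ones, with overlapping sexes. Over all 4 coverslips it was 0.337% ± 0.0400, and over the 8 sections 0.270% to 0.400%. A test of whether differences from other cells, or between edge and deep cells, changed with sex found no gene at an adjusted p under 0.05, and the lowest values were 0.125 and 0.289.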

How the data were processed

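The deposited values are whole-number counts of decoded transcripts per cell, per the file headers, which the authors had not normalized; 140 genes and 40 blanks were used. Anisotropy, volume and cell centres are other measures that the authors deposited, with no unit given. For decoding and segmentation, software and settings were not given in the sources used here. The cells and gene lists were chosen with earlier results of these data known. Cells under 20 gene counts (7.96%) were left out. Each coverslip was gridded at 100 units; grid squares holding 4 or more cells were joined where they touched, and the 2 biggest joined areas were its sections. The outer edge came from a 50-unit grid, filled from outside. Doublets were not called; 2 Wnt5a-gated cells exceeded 3 times the median volume.

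Counts were summed per coverslip and cell set and tested with edgeR 4.0.16 (R 4.3.3; quasi-likelihood fit, glmTreat against 2-fold, coverslip as block, summed cell volume as offset, Benjamini-Hochberg 0.05). The 2 sexes were tested with edgeR's quasi-likelihood test against no difference, with TMM. Scripts were tested on simulated data. Shares and anisotropy were tested over sections with exact sign-flip tests (scipy 1.17.1). DESeq2 1.42.0 was an alternative; 38 alternatives were planned and 12 added. Genes named were the 15 called higher and 10 called lower with the largest log2 differences from all other cells, the 8 largest of each other comparison, the proposed markers, and members of the Wnt lists; marker genes of other cell types were named after their values were seen. The depth of a coverslip is its total count, and the n of 4 coverslips or 8 sections limits precision. The labels do not say whether sections of one genotype came from separate animals, so p-values measure the spread between these coverslips or sections. One gene that the naming rule covers is not reported here.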

Additional observations from a re-analysis of the deposited data

Results flagged for a closer look

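With 71 groups of samples examined for a value far from the others, 4 stood out; chance flags about 1 in 20 groups. The share of Wnt5a-gated cells at the outer edge was 40.05% in 1 section of coverslip 2, against 18.6% to 28.6% in the other 7 sections. Among Wnt5a-gated cells, Cux2, an upper-layer neuron gene, had 0.440 counts per cell on coverslip 4, against 0.188 to 0.1997 on the other 3 coverslips. Sox10 had 1.01 counts on coverslip 4, against 0.292 to 0.318. Trabd2b had 0.681 counts on coverslip 1, against 0.993 to 1.04. No cause was tested for these values.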

How the results depend on the processing

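No named gene changed sign under the alternatives run, but the split of calls did: against border macrophages 20 higher and 7 lower became 5 and 9 with TMM, and between the sexes 3 and 0 became 0 and 1 without coverslip 1. The edge share, the macrophage neighbour share and the anisotropy difference stayed on the same side of the threshold under every alternative run, with exact p = 0.0312 when a coverslip was left out, the smallest that 6 sections allow. Requiring 3 Wnt5a counts lowered the share of Wnt5a-gated cells to 0.160%. Against all other cells, a test against no difference called 51 higher and 41 lower, and edge cells alone gave 18 higher. Against the gate without Wnt5a, TMM and library totals called 9 and 8 lower, and leaving out a coverslip gave 1 to 4 lower. Against mural cells, TMM called 10 and library totals 9 higher. Between edge and deep cells, leaving out a coverslip gave 1 to 4 higher and 3 to 14 lower. Between the sexes, a volume offset called 28 higher, and leaving out a coverslip gave 0 to 11 higher and 1 to 3 lower; the lone coverslip of a sex was then assumed to vary like the other sex. Of the values of single named genes under alternatives, 627 kept their side and 21 lost their call. The cause of these changes was not tested. The median log2 over all genes also changed sign with scaling, from 0.29 by volume to -0.07 by TMM against the gate without Wnt5a, and from 0.66 by volume to -0.13 by library totals against mural cells. Between the sexes, no paired analysis was possible because the replicate numbers of the 2 sexes were given in accession order and pair nothing. Blanks limit low genes: the most abundant blank reached 0.175 counts per cell in Wnt5a-gated cells, 0.338 in other cells and 0.747 in mural cells, and genes below it cannot be told from false decoding.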
